A study of Homo sapiens with 60 samples.

Results

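From the lung adenocarcinoma line H1975, 6 RNA-seq libraries were compared: 3 libraries labelled short washout, from drug-tolerant persister cells (DTPs) released from osimertinib, and 3 libraries of DTPs harvested with the drug still present. They were chosen by their labels alone, as 6 of the 60 libraries of the series. H1975 is an EGFR-mutant non-small cell lung cancer line grown as a monolayer, and osimertinib is an irreversible inhibitor of mutant EGFR. DTPs had received 500 nM osimertinib for 21 days. The short washout cells had the same treatment, were washed with PBS and were then kept in drug-free medium for 24 hours. Long washout cells of this line were kept without drug for 72 hours, which the protocol describes as the time at which exponential growth had resumed. Parental H1975 cells, grown without drug for 21 days, then received DMSO or 500 nM osimertinib for 24 hours (acute osimertinib). Each arm had biological triplicates, and the same 5 arms were made in PC9, HCC827 and HCC2935, where the long washout was longer. The main comparison comes from 1 established line, and DTPs are the cells that survived the drug rather than a genetic model.

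EGFR signals through RAS and ERK and through PI3K and AKT. ERK raises immediate early genes and its own inhibitors, such as the dual-specificity phosphatases and Sprouty proteins, while AKT keeps FOXO transcription factors out of the nucleus. Cells that lose both inputs leave the cycle: E2F genes for DNA replication and the later mitotic genes go down, and FOXO targets and the BH3-only death genes BMF and BCL2L11 (BIM) go up. Persisters are known as slow-cycling cells that can resume growth once the drug is gone.

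The washout labels of H1975 need a caution before any result. The summed level of 35 mitotic genes, in CPM (counts scaled to a common library total), was 4019, 5173 and 3480 in the 3 libraries labelled short washout and 1773, 2408 and 1946 in those labelled long washout, so the arm described as proliferating had the lower level in all 3 libraries. In PC9 and HCC2935 the order was the opposite: relative to DTPs the mean mitotic sum was 1.15-fold and 1.49-fold in the short washout and 2.12-fold and 2.56-fold in the long washout. HCC827 had 1.2-fold and 0.955-fold. H1975 had 1.72-fold in the libraries labelled short washout and 0.832-fold in those labelled long washout. The long washout lasted 7 days in PC9, 10 days in HCC2935 and 96 hours in HCC827, against 72 hours in H1975. The lines are therefore not matched in time, and HCC827, the nearest to H1975, had the same order as H1975. Whether the 2 labels of H1975 were exchanged was not tested, and the values of the libraries labelled long washout are therefore given beside the main results.

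The 6 libraries held 41302122 to 49134084 estimated counts each, within 17715463 to 49134084 over the 60 libraries. Across 12141 genes the median correlation of log2 CPM with the DTP libraries was 0.984 for those labelled short washout and 0.987 for those labelled long washout. Replicates of an arm differed by 23.3 to 96.3 times the counting error in their mean squared differences. The 6 epithelial markers summed to 60.2% of their DMSO mean in DTPs and 60% after washout. Against DMSO, 4 of the 6 were called lower after washout and 0 higher. The keratins KRT7, KRT8 and KRT18 averaged 810, 954 and 673 CPM in DTPs and 864, 988 and 678 CPM after washout. KRT19 had 551, 453 and 498 CPM in DTPs and 416, 371 and 426 CPM after washout, and was with CDH1 one of the 2 epithelial markers of 6 that were called lower in the paired fit described below. EPCAM, an epithelial adhesion protein, was low in both, at 16.8, 24.2 and 21.2 CPM in DTPs and 19.1, 21.5 and 21.8 CPM after washout, against 272, 120 and 246 CPM in DMSO. CDH1 was likewise far below its DMSO level in both arms. The 6 leukocyte markers summed to 2.76 to 6.04 CPM in DTPs and 2.15 to 3.18 CPM after washout, nearly all of it PTPRC and CD14, while CD3E, CD79A, LYZ and TYROBP each averaged under 0.1 CPM in both arms. CD14 was called lower in the paired fit (-0.92 ± 0.26).

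The first question was what changed in the cells within a day of drug removal. Genes that drive DNA replication and mitosis were higher in every same-numbered pair of libraries, FOXO targets and the death gene BMF were lower, and most ERK target genes still differed from DMSO. With the 6 libraries treated as unpaired, edgeR's quasi-likelihood test called 0 of 14665 genes (0%) at an adjusted p under 0.05. Its smallest adjusted p was 0.173, and 1950 genes (13.3%) had an unadjusted p under 0.05. DESeq2 called 399, and 276 genes were called when DTP replicate 2 was left out.

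Replicates of the same number deviated together. The deviations of DTP and washout libraries 1, 2 and 3 from their group means had correlations of 0.26, 0.62 and 0.57. DTP replicate 2 and washout replicate 2, for example, had the highest mitotic sums of their arms. The highest correlation between different numbers was 0.03. Deviations within an arm cancel out, so the correlations between different numbers are not independent of those for the same number. When that number was added to the edgeR model as a block, here called the paired fit, 1697 of 14665 genes (11.6%) were called, 983 higher (6.7%) and 714 lower (4.87%) after washout. Only 102 of them changed at least 2-fold, 49 up and 53 down. The labels do not say what a shared number marks, and the paired calls fell to 1005 without pair 1 and to 56 when the spread was estimated over all 15 H1975 libraries. On the deposited log2 TPM values, a paired limma fit called 1699 genes with 74.3% of them higher, while DESeq2 called 1807 with 57.9% higher. The unpaired fit was the planned test and the block an alternative to it. In what follows, rose and fell mean called in the paired fit, and none of these genes was called in the unpaired fit.

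The DNA replication list holds the MCM helicase, the origin licensing and firing factors, the nucleotide enzymes and the E2F factors that switch them on. Of its 35 genes, all tested, 34 rose and 0 fell, against a background of 6.7% of all genes rising. The median log2 fold change was 0.73, beside -0.01 over all genes tested. All 35 were higher in 3 of 3 pairs, which 25.5% of all genes were, and for 26 of them the washout CPM lay wholly above the DTP CPM, beside 9.91% of all genes. The summed level was 1343, 1949 and 1250 CPM in DTPs and 2361, 2734 and 2080 CPM after washout. Every washout library lay above every DTP library, and the washout mean was 54.5% of the DMSO mean, against 34.5% in DTPs and 30.6% in the libraries labelled long washout.

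MCM5, a subunit of the replicative helicase, had 45.1, 67.3 and 36.2 CPM in DTPs and 99.8, 130 and 79.4 CPM after washout, and rose by a log2 fold change of 1.06 ± 0.07 (SE, adjusted p = 0.000249). CDT1, which loads that helicase onto origins, had 14.4, 19.9 and 16.3 CPM in DTPs and 32.3, 41.1 and 31.6 CPM after washout (1.04 ± 0.09). Neither gene overlapped between the arms. MCM10, needed to start the fork, had 10.9, 19.6 and 13.4 CPM and then 35.7, 30.9 and 22.1 CPM (1.01 ± 0.17). MCM2, another helicase subunit, rose less, from 102, 147 and 108 CPM to 177, 219 and 163 CPM (0.64 ± 0.07). The gene of the list that was not called was CCNE1, cyclin E1, with 14.1, 15.1 and 15.4 CPM in DTPs and 17.7, 18 and 15.6 CPM after washout. In the libraries labelled long washout MCM5 was at 42.2, 42.7 and 44.4 CPM, within the range of the DTPs.

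The mitosis list holds the kinases, cyclins, kinesins and kinetochore proteins of G2 and M phase. All 35 genes rose, with a median log2 fold change of 0.86 and a range from 0.56 to 1.06. Their summed level was 2278, 3673 and 1410 CPM in DTPs and 4019, 5173 and 3480 CPM after washout. The arms overlapped here, because DTP replicate 2 stood above washout replicate 3. Only 9 of the 35 genes had arms that did not overlap, beside 9.91% of all genes with the washout higher, and all of the calls rest on the pairing, as those of every list do. All 35 were still called without any 1 of the 3 pairs, whereas 1 was called with the spread estimated over 15 libraries. In that fit 10 replication genes, 2 cholesterol genes and 1 BCL2 family gene were also called, and 0 members of the other lists described here. The means were 2450 ± 1140 CPM (SD, n = 3) in DTPs, 4220 ± 865 in the washout, 2040 ± 328 in the libraries labelled long washout and 7860 ± 518 in DMSO.

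**Figure D1:**
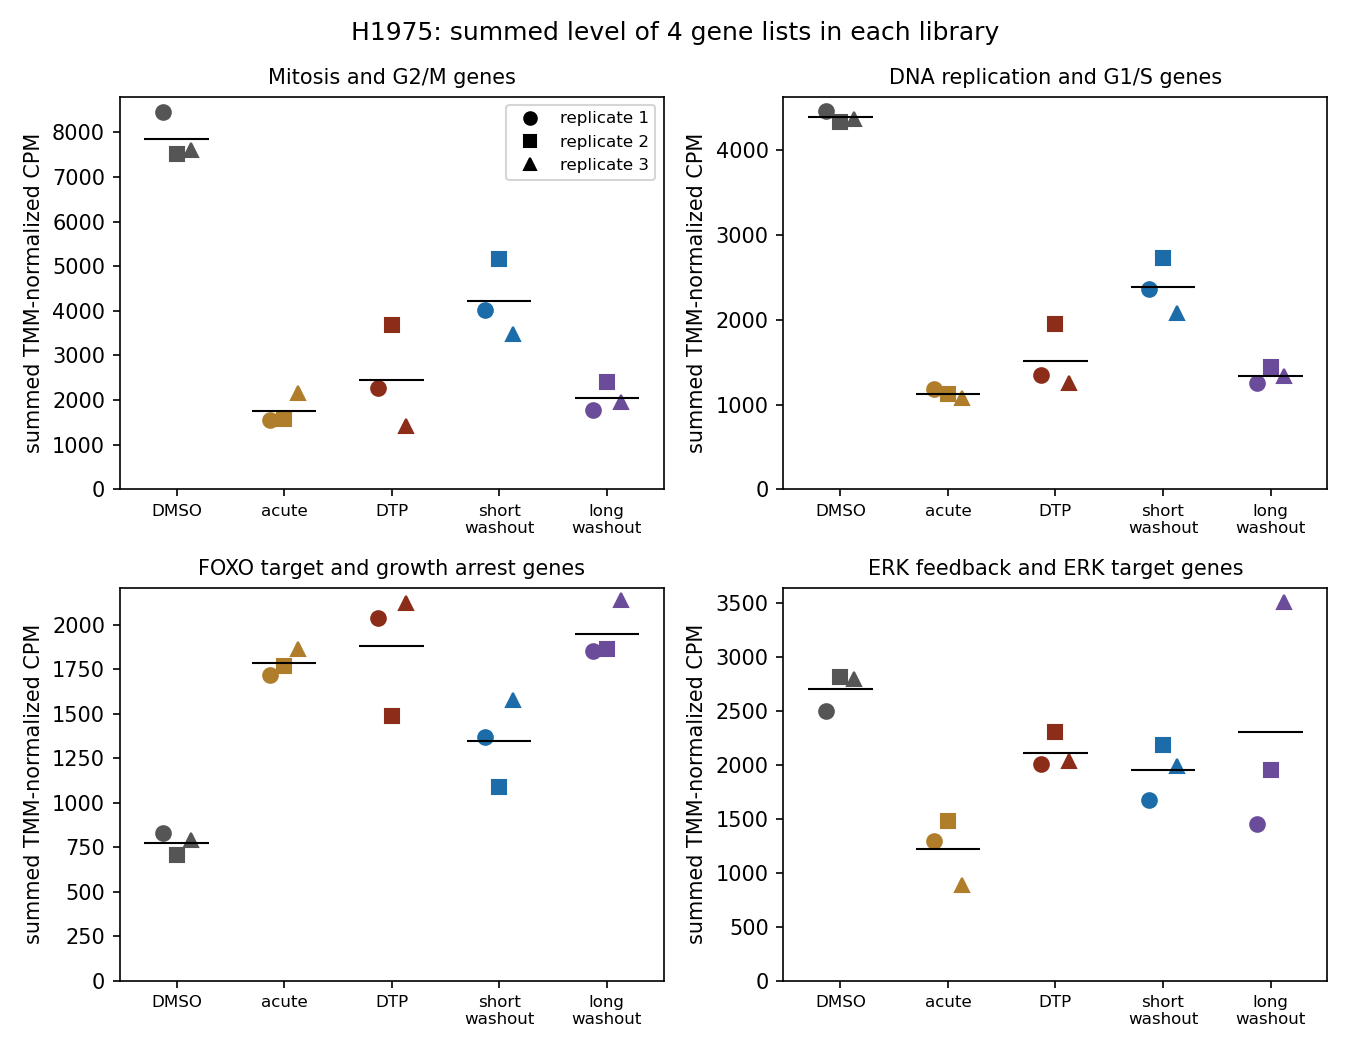
Summed CPM of the members of 4 gene lists in each H1975 library (points, 3 per arm) by arm, with the arm mean as a bar. For DNA replication every library labelled short washout (2080 to 2734 CPM) stands above every DTP library (1250 to 1949 CPM), and all stand below DMSO (4335 to 4466 CPM).

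AURKB, the kinase that corrects chromosome attachments, had 31.5, 55 and 26.3 CPM in DTPs and 72.7, 95.6 and 61.9 CPM after washout (log2 fold change 1.06 ± 0.1, adjusted p = 0.000478). MKI67, the proliferation antigen that coats mitotic chromosomes, had 203, 350 and 120 CPM and then 372, 462 and 320 CPM (0.88 ± 0.14, adjusted p = 0.0034). CDK1, the mitotic kinase, had 37.6, 65.3 and 30.2 CPM and then 80.5, 89.1 and 80.5 CPM (0.97 ± 0.14). AURKB and CDK1 did not overlap between the arms, while MKI67 did. CCNB1, the cyclin of CDK1, had 110, 166 and 61.6 CPM in DTPs and 172, 247 and 142 CPM after washout (0.79 ± 0.11). TOP2A, which untangles sister chromatids, and ANLN, a scaffold of the cleavage furrow, rose by 0.92 ± 0.13 and 0.97 ± 0.12.

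The 12 highest calls over all genes were chosen among those whose arms do not overlap. They include genes known for roles in DNA repair or mitosis, of which 3 are given here. BRCA2, which acts in homologous recombination, had 5.19, 7.5 and 3.95 CPM in DTPs and 12.6, 14.4 and 13.6 CPM after washout (1.31 ± 0.17). SKA1, which couples kinetochores to microtubules, had 7.25, 13.7 and 5.39 CPM and then 20.4, 22.6 and 16.7 CPM (1.25 ± 0.16). The kinesin KIF18B had 21.1, 33.2 and 17 CPM and then 52.2, 58.7 and 48.4 CPM (1.2 ± 0.12). In bulk RNA, more cells in cycle and more RNA per cycling cell cannot be told apart.

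**Figure D2:**
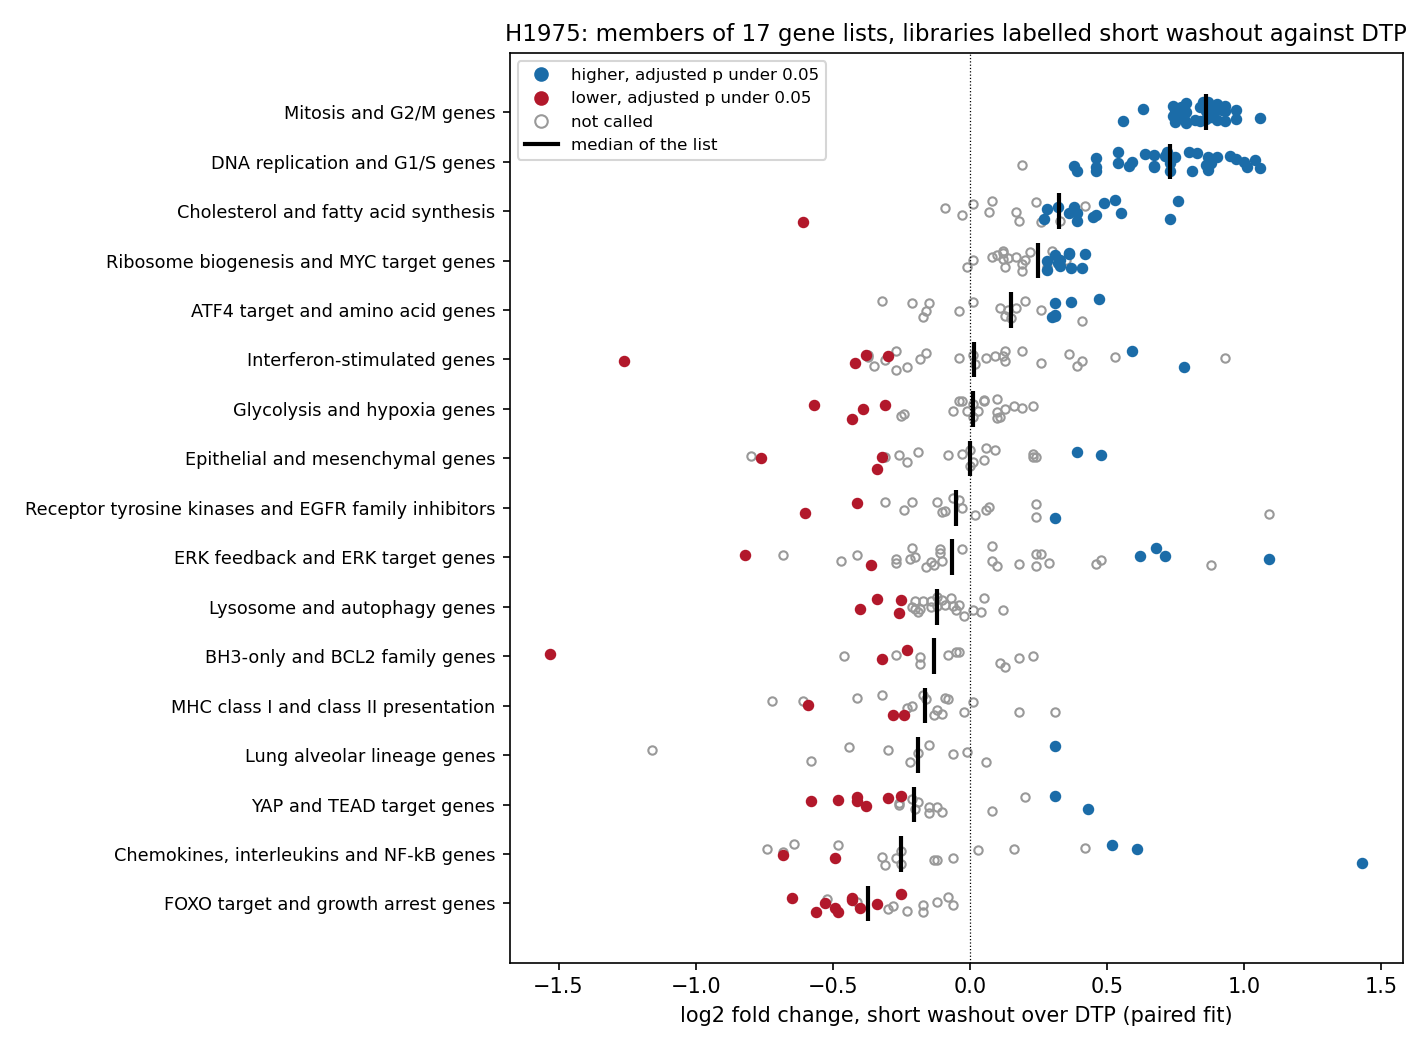
Log2 fold change, short washout over DTP in the paired fit (x axis), for every tested member of 17 gene lists (rows), coloured by whether it was called, with the list median as a bar. The mitotic genes lie between 0.56 and 1.06, and the FOXO targets between -0.65 and -0.06.

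The replication and mitotic lists differ in their promoters, and 3 are shown to set the 2 kinds beside each other. They cover the 250 bases before the start site in RefSeq (GRCh38.p14), 5′ to 3′ on the strand of the gene. Capitals mark a cell-cycle homology region (CHR), a CCAAT box or an E2F site, each searched on both strands. The CHR was spelled TTTGAA, with TTTAAA as its other form. The box was its own letters, and the E2F site was TTTCCCGC, TTTGGCGC, TTTCGCGC or TTTGCCGC. MKI67 lies at chr10:128126424-128126673 on the minus strand, CCNB1 at chr5:69166900-69167149 and CDT1 at chr16:88803539-88803788, both on the plus strand.
MKI67: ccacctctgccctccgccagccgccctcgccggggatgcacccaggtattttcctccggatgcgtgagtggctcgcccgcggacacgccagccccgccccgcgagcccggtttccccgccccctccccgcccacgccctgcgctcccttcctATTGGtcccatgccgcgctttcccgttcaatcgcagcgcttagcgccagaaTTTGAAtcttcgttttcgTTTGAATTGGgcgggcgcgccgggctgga
CCNB1: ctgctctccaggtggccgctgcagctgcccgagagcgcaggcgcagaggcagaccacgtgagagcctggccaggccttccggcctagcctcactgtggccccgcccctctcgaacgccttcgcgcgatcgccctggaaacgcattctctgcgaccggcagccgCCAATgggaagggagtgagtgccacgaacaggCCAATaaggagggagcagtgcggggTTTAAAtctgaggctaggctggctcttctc
CDT1: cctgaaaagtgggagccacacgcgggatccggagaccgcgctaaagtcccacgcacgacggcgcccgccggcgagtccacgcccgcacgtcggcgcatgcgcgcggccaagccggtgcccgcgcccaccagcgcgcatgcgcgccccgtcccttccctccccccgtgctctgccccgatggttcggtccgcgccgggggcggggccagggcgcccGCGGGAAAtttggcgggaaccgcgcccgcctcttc
MKI67 has CHR matches at -47 and -29 and CCAAT boxes at -98 and -24, the last overlapping a CHR match. CCNB1 has a CHR match at -30 and CCAAT boxes at -87 and -55, and CDT1 has 1 E2F match at -35. A CHR match was present in 23 of the 30 mitotic genes with an entry in the table (76.7%), in 4 of 29 replication genes (13.8%) and in 22.1% of all 27305 promoters. E2F matches were found in 2 mitotic genes (6.67%), 12 replication genes (41.4%) and 2.79% of all promoters. CCAAT boxes were found in 76.7%, 58.6% and 33.0%.

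FOXO target and growth arrest genes moved the other way. Of 20 genes, 10 fell and 0 rose, with a median of -0.37, beside 4.87% of all genes falling. Of these genes 17 were lower in all 3 pairs, as 22.5% of all genes were, and 9 lay wholly below the DTP range, as 8.64% did. Their summed level was 2038, 1488 and 2126 CPM in DTPs and 1372, 1086 and 1578 CPM after washout. TXNIP, given below, is the largest part of each of these sums and of the fall in each pair, so the sum mainly follows that gene. DTP replicate 2, the DTP library with the highest mitotic sum, had the lowest FOXO sum and lay inside the range of the washout libraries. The libraries labelled long washout stayed at the DTP level, with 1853, 1863 and 2138 CPM, and DMSO had 831, 704 and 788 CPM.

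TXNIP, an inhibitor of thioredoxin and glucose uptake, had 1110, 776 and 1300 CPM in DTPs and 685, 507 and 862 CPM after washout, and it fell in all 3 pairs (-0.65 ± 0.06, adjusted p = 0.000478). BCL6, a repressor induced by FOXO, had 95.4, 70 and 76 CPM and then 57.4, 50.6 and 60.1 CPM (-0.53 ± 0.09). BCL6 did not overlap between the arms. YPEL3, a growth suppressor, fell by 0.56 on the log2 scale, but had -0.31 (adjusted p = 0.251) without pair 1. CDKN1B, the CDK inhibitor p27, was not called, with 60.5, 58.6 and 65.7 CPM in DTPs and 54.8, 53.4 and 57.9 CPM after washout. The number of FOXO genes called was 6 without pair 1, 6 without pair 2 and 0 with the spread over 15 libraries.

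Of 14 genes of the BCL2 family that were tested, 3 fell and 0 rose, beside 4.87% and 6.7% of all genes. BMF, a BH3-only protein that binds the survival proteins of the family, was the largest of these. It had 16.4, 16.4 and 28.2 CPM in DTPs, 4.52, 6.39 and 10.8 CPM after washout, 23.9, 18 and 25 CPM in the libraries labelled long washout and 9.23, 5.77 and 7.86 CPM in DMSO. Each washout library lay below each DTP library and the washout range included all 3 DMSO values (-1.53 ± 0.13, adjusted p = 0.000478). BCL2L11, which encodes BIM, had 33.9, 29 and 38.9 CPM and then 25.2, 23.3 and 34.2 CPM (-0.32 ± 0.09, adjusted p = 0.0395), and was no longer called without pair 1 or pair 2. Without either of those pairs BMF was the only member called.

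ERK target genes did not move as a group. Of 32, 4 rose and 2 fell, beside 6.7% and 4.87% of all genes, and the median was -0.07. Against DMSO the same libraries still had 22 of 32 lower and 4 higher, beside 21.8% and 21% of all genes. Their median was -1.61. The summed level was 2005, 2302 and 2033 CPM in DTPs and 1679, 2183 and 1993 CPM after washout, with DMSO at 2503, 2817 and 2794 CPM. The 2 arms overlapped, and both lay below DMSO.

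DUSP6, the ERK phosphatase, had 1.21, 2.02 and 0.833 CPM in DTPs and 0.94, 1.25 and 0.774 CPM after washout, against 12.7, 8.33 and 11.4 CPM in DMSO. The washout difference was not called (-0.41 ± 0.31). SPRY4, another feedback inhibitor, stayed under 1 CPM in all 6 libraries. EGR1, an immediate early gene, had 14.5, 13.6 and 16.9 CPM in DTPs and 4.13, 11.7 and 23.2 CPM after washout, a wider spread than the difference. MYC, a growth regulator, was lower in all 3 pairs without being called (-0.21 ± 0.07, adjusted p = 0.0805).

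The 4 ERK targets that rose were ETV4, CCND1, FOSL1 and HMGA2. ETV4, an ETS transcription factor, had 1.61, 2.84 and 1.64 CPM in DTPs and 3.64, 4.81 and 4.32 CPM after washout (1.09 ± 0.22). CCND1, cyclin D1 of the G1 phase, had 29.1, 59.4 and 35.7 CPM and then 64.2, 91.5 and 47.2 CPM (0.71 ± 0.12). FOSL1, an AP-1 subunit, had 22.4, 43.9 and 17.5 CPM and then 36.3, 66.3 and 30.1 CPM (0.68 ± 0.08). All 3 were higher in each pair and far below DMSO, where CCND1 had 221, 426 and 246 CPM. DUSP5, a nuclear ERK phosphatase, fell from 23.1, 24.4 and 16.1 CPM to 10.6, 16.3 and 9.79 CPM (-0.82 ± 0.12). Without pair 3, 5 of these genes fell in place of 2.

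At the receptor itself little was seen. EGFR had 267, 252 and 208 CPM in DTPs and 259, 253 and 230 CPM after washout (0.02 ± 0.07), and DMSO had 425, 448 and 465 CPM. ERBB3, its partner receptor, was at 4.74 to 5.73 CPM in all 6 libraries, against 84.3, 25.1 and 77.4 CPM in DMSO. Of the 18 receptor and inhibitor genes tested, 1 rose (AXL) and 2 fell, beside 6.7% and 4.87% of all genes. AXL was not called without pair 2 or pair 3, and 3 genes fell without pair 3. ERRFI1, which encodes the EGFR inhibitor MIG6, had 240, 254 and 262 CPM in DTPs, 145, 171 and 189 CPM after washout and 288, 281 and 476 CPM in the libraries labelled long washout. It did not overlap between the first 2 arms (-0.6 ± 0.07, adjusted p = 0.00106).

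**Figure D3:**
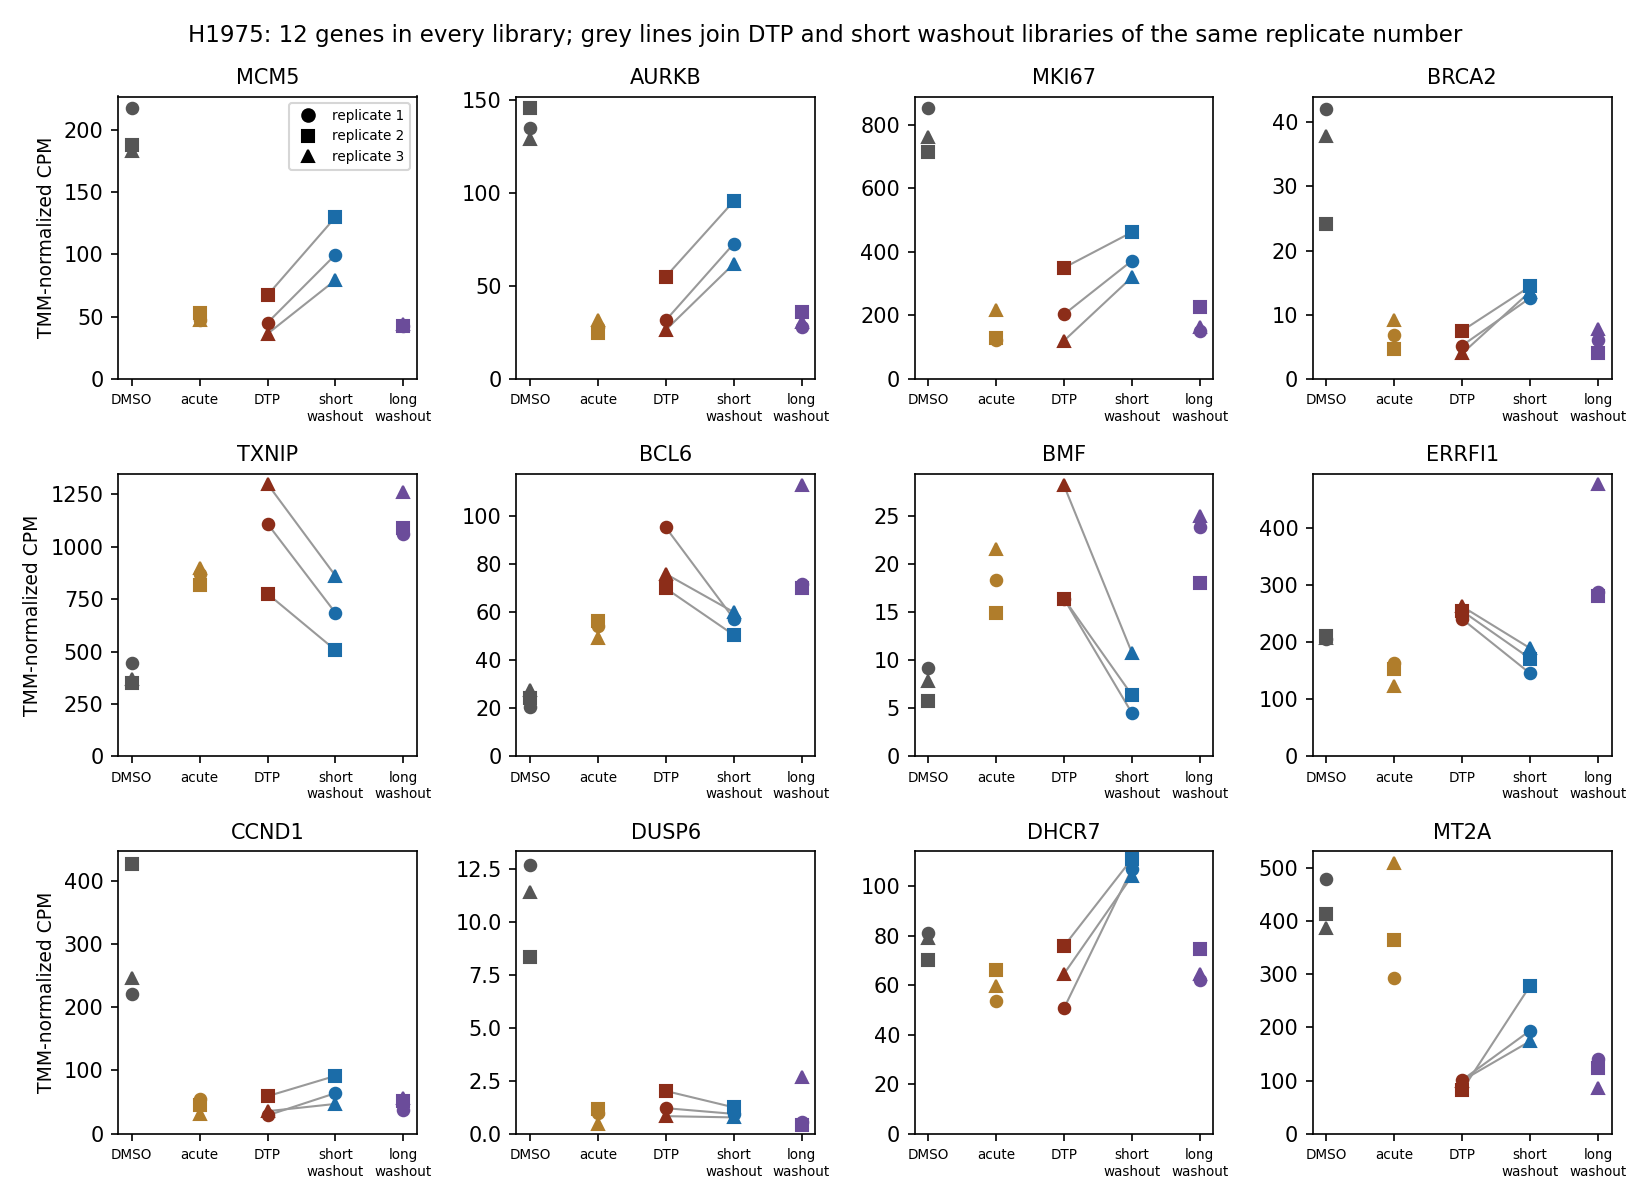
CPM of 12 genes in each of the 15 H1975 libraries (points) by arm, with an axis from 0 in each panel. Grey lines join DTP and short washout libraries of the same replicate number. BMF lies at 4.52 to 10.8 CPM in the libraries labelled short washout and at 16.4 to 28.2 CPM in DTPs, while DUSP6 stays at or under 2.02 CPM in both.

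Genes of sterol synthesis rose in part. Of 26 cholesterol and fatty acid genes tested, 14 rose and 1 fell, beside 6.7% and 4.87% of all genes, with a median of 0.33. The arms of 16 did not overlap, beside 18.6% of all genes in either direction. DHCR7, which acts late in cholesterol synthesis, had 50.7, 75.8 and 64.6 CPM in DTPs and 107, 111 and 104 CPM after washout (0.76 ± 0.09). HMGCS1, an early enzyme of the mevalonate pathway, rose by 0.53 ± 0.09. DHCR7 after washout also lay above DMSO, which had 80.9, 70.1 and 78.9 CPM. The gene that fell was SREBF1, a transcription factor of lipid synthesis, from 93, 128 and 103 CPM to 67.6, 68 and 77.8 CPM (-0.61 ± 0.1). The number that rose was 7 without pair 1 and 9 without pair 3.

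Ribosome biogenesis genes, which include the factors that process ribosomal RNA, had small increases. Of 28, 11 rose and 0 fell, beside 6.7% of all genes rising. The median was 0.25, and 24 were higher in all 3 pairs, beside 25.5% of all genes. RRS1, an assembly factor of the large subunit, had 20.7, 28.6 and 24.7 CPM in DTPs and 32.4, 37.6 and 29.4 CPM after washout (0.42 ± 0.1). The arms of RRS1 did not overlap, but its call was lost without pair 1, when 2 genes of the list were called.

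Among amino acid genes controlled by ATF4, 6 of 21 rose and 0 fell, beside 6.7% of all genes rising. PSAT1 and PHGDH, which make serine, rose by 0.47 ± 0.1 and 0.31 ± 0.07, and ASNS, which makes asparagine, had 111, 141 and 164 CPM in DTPs and 190, 167 and 180 CPM after washout (0.37 ± 0.1). These genes were already above DMSO in DTPs, and ASNS had 62.9, 66.8 and 63.4 CPM there. All 3 calls were lost without pair 1, when 2 of the list were called.

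Of 20 YAP and TEAD targets 7 fell and 2 rose, beside 4.87% and 6.7% of all genes, and the median was -0.2. CCN2, a secreted matrix protein and index target of YAP, had 255, 262 and 166 CPM in DTPs and 149, 169 and 137 CPM after washout (-0.58 ± 0.09). F3, tissue factor, had 119, 107 and 102 CPM and then 80, 82.8 and 74.1 CPM (-0.48 ± 0.07). CCN2 overlapped between the arms and F3 did not. AXL and NT5E were the 2 that rose, and neither was called without pair 2.

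The other lists had few calls, and their shares are to be read against 6.7% of all genes rising and 4.87% falling. Interferon-stimulated genes had 2 higher and 4 lower of 30, among them OASL (0.78 ± 0.15) and OAS3 (0.59 ± 0.07), both sensors of the oligoadenylate synthetase family, and IFI44L, an interferon-induced gene (-1.26 ± 0.23). Glycolysis and hypoxia genes had 4 lower of 23, and NDRG1, a hypoxia-induced gene, had 488, 340 and 393 CPM in DTPs and 263, 250 and 310 CPM after washout. Lysosome genes had 4 lower of 25, and antigen presentation genes 3 lower of 20. Without pair 1 the lower calls were 2 interferon, 2 glycolysis, 0 lysosome and 1 antigen presentation gene. Of 11 alveolar genes tested, out of 18 listed, 1 rose.

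Of 21 epithelial and mesenchymal genes tested, 2 rose and 3 fell. CDH1, E-cadherin, had 5.35, 8.2 and 9.09 CPM in DTPs, 4.4, 3.98 and 4.84 CPM after washout and 374, 135 and 338 CPM in DMSO. It was called lower (-0.76 ± 0.18, adjusted p = 0.0201), but not without pair 2 or pair 3. Among 20 chemokine and NF-kB genes tested, 3 rose and 2 fell. IL11, a cytokine of the IL6 family, had 4.52, 6.52 and 2.08 CPM in DTPs and 11.1, 14.9 and 7.96 CPM after washout (1.43 ± 0.17). CCL2, a monocyte attractant, fell by 0.68 on the log2 scale, and BIRC3, an inhibitor of apoptosis, rose by 0.61 ± 0.13.

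Further large changes fell in no list. TAGLN and ACTG2, both smooth muscle cytoskeletal genes, rose, ACTG2 from 1.01, 1.2 and 2.08 CPM to 7.31, 2.5 and 7.21 CPM (1.89 ± 0.3). PKD1L1 (2.22 ± 0.32) and the hair keratin KRT81 (2.01 ± 0.38) rose from under 1 CPM. DESeq2 with the replicate block gave neither gene an adjusted p. The largest decreases included PADI3 (-1.69 ± 0.27) and PADI2 (-1.48 ± 0.16), enzymes that turn arginine into citrulline in proteins, SLC6A20, an amino acid transporter (-1.62 ± 0.23), and the metalloreductase STEAP4. They too were chosen among calls whose arms do not overlap. STEAP4 had 41.6, 22 and 35.3 CPM in DTPs and 10.7, 6.37 and 17 CPM after washout (-1.6 ± 0.16). PADI2 had 9.53, 7.82 and 15.4 CPM, then 2.61, 3.26 and 6.22 CPM, and 19.6, 19.4 and 18.7 CPM in the libraries labelled long washout.

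Metallothioneins, small proteins that bind zinc and copper, were singled out after their values were seen. MT2A had 101, 82.3 and 100 CPM in DTPs, 194, 278 and 174 CPM after washout and 479, 412 and 387 CPM in DMSO (1.15 ± 0.14, adjusted p = 0.00121). MT1X had 7.92, 6.86 and 10.7 CPM and then 17.5, 19.6 and 17.9 CPM (1.12 ± 0.14). MT1E rose by 1.03 ± 0.14 and MT1F by 1.95 ± 0.32, while MT1A was not called (0.67 ± 0.27). MT1M (1.63 CPM on average after washout, 0.315 in DTPs) and MT1H (0.417 and 0.00817 CPM) were also called, which makes 6 of the 7 that were tested, and all 7 lay higher without overlap, beside 9.91% of all genes. MT1H and MT1M passed the filter on low counts only with the washout libraries, so they could enter the test only as higher and add no support. Metallothioneins are near-identical genes, so how their reads were divided is uncertain.

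The promoters of 2 metallothioneins are shown because metal response elements (MRE) lie in them. Capitals mark TGCACNC on either strand, N being any base, or the second spelling of the element, which is TGCGCNC, in the same RefSeq window. MT2A lies at chr16:56608334-56608583 and MT1X at chr16:56682220-56682469, both on the plus strand.
MT2A: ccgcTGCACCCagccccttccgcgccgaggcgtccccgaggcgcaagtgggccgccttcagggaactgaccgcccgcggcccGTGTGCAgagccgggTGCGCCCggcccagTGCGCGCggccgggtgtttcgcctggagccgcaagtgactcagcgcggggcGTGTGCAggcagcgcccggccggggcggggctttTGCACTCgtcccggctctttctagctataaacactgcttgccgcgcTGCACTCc
MT1X: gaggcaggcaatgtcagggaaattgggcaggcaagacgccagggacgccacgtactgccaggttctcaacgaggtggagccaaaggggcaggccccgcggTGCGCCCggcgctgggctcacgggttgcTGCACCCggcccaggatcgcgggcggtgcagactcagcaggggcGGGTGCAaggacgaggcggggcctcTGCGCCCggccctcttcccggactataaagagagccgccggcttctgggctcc
MT2A has 7 matches and MT1X 4. At least 2 matches were found in all 3 metallothioneins with an entry and in 6.51% of all promoters.

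Against DMSO, the libraries labelled short washout remained far apart: 6288 of 14661 genes (42.9%) were called, 3086 higher (21%) and 3202 lower (21.8%), and 40.8% with the replicate block. This comparison and the one above share the washout libraries. Of the mitotic genes 35 of 35 were lower than in DMSO, with a median of -0.78, and of the replication genes 32 of 35, with a median of -0.73. FOXO targets were higher in 15 of 20, with a median of 0.9. MCM5, for example, was above its DTP level and below its DMSO level (-0.85 ± 0.16 against DMSO, adjusted p = 0.00413).

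When the libraries labelled long washout took the place of those labelled short washout, 2 of 14702 genes (0.0136%) were called against the same DTP libraries, without a block because the numbers did not pair there. Both were lower: NGFR, a neurotrophin receptor, by -2.85 ± 0.3, and SLC44A2, a choline transporter-like protein, by -1.5 ± 0.15. The list medians were -0.3 for mitosis, -0.2 for replication, 0.05 for FOXO targets, 0.2 for ERK targets and -0.22 for ATF4 targets, with 0 members called in each. BMF (0.14 ± 0.22), ERRFI1 (0.46) and MKI67 (-0.32 ± 0.33) had the opposite sign to the libraries labelled short washout.

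**Figure D4:**
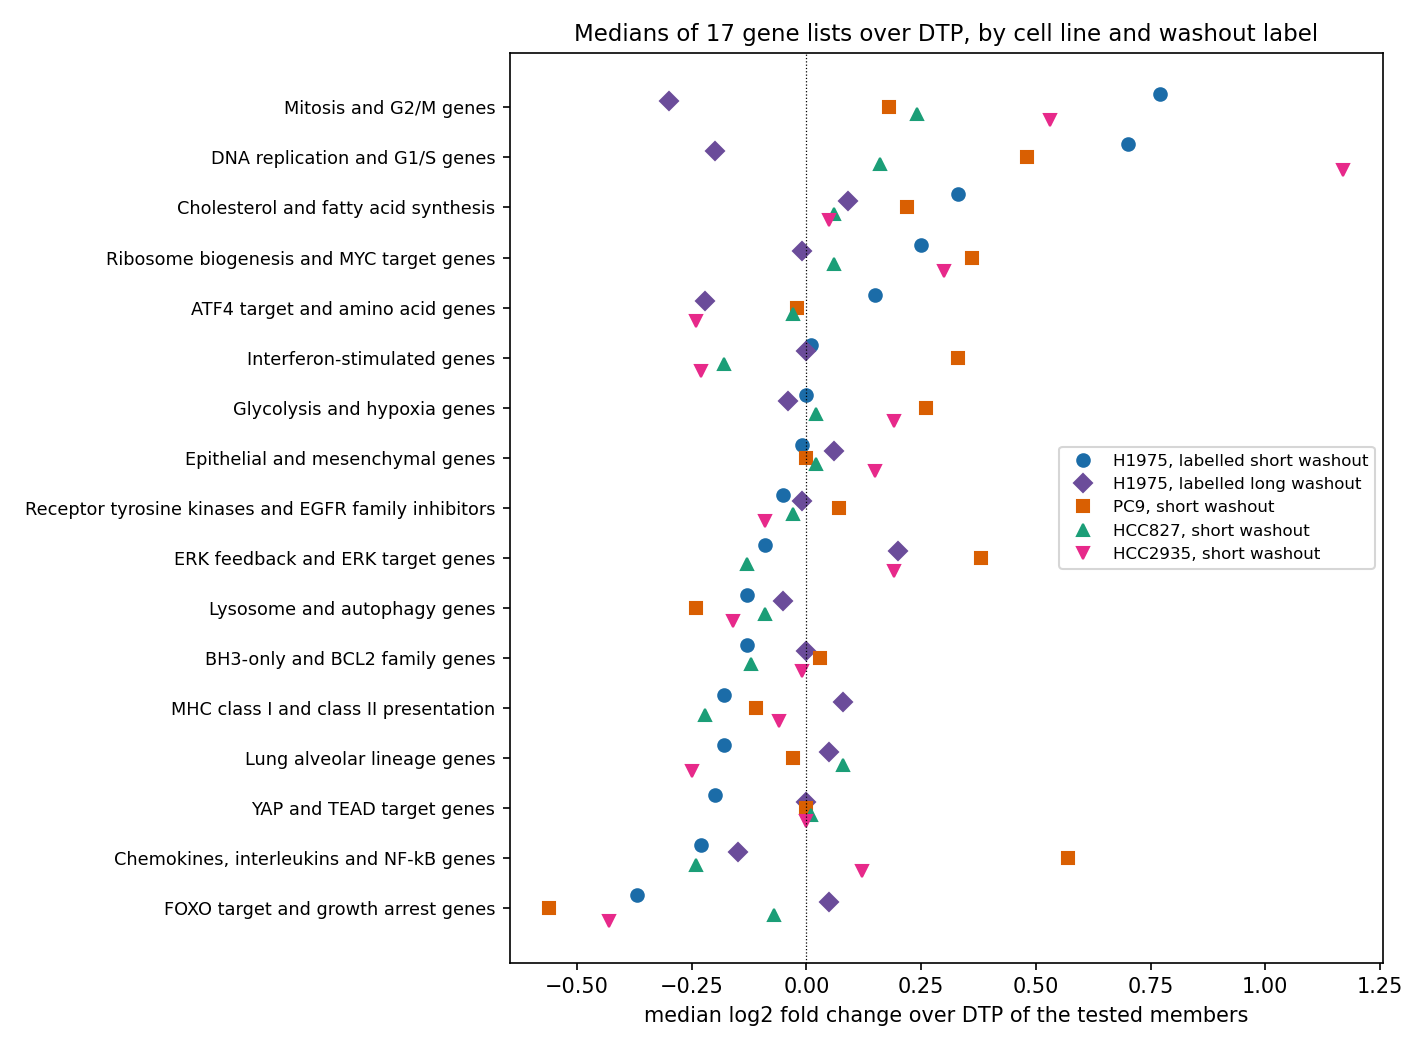
Median log2 fold change over DTP (x axis) of the tested members of 17 gene lists (rows), for H1975 libraries labelled short and long washout and for short washout in PC9, HCC827 and HCC2935, all from unpaired fits. For mitosis H1975 has 0.77 and -0.3 under its 2 labels, and the other lines have 0.18 to 0.53.

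The same day of drug removal was compared with that in the other 3 lines. Short washout against DTPs gave 3221 of 14526 genes (22.2%) in PC9, 0 of 14009 in HCC827 and 503 of 14305 (3.52%) in HCC2935, all unpaired. The numbers also pair the HCC827 samples, where the replicate block called 2 genes, both lower. In unpaired fits of each line the replication medians were 0.48 in PC9, 0.16 in HCC827 and 1.17 in HCC2935, beside 0.7 in H1975, and the mitosis medians 0.18, 0.24 and 0.53 beside 0.77. FOXO targets had -0.56, -0.07 and -0.43 beside -0.37. ERK targets had 0.38 in PC9, beside -0.09 in H1975. In PC9, 9 of 32 were called higher, beside 12.1% of all genes there.

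The difference between the H1975 effect and the mean of the other lines was called for 0 of 16120 genes by edgeR, with 829 (5.14%) at an unadjusted p under 0.05. DESeq2 called 36 and limma 1. With a replicate block within each line 12 were called (0.0744%), 1 more positive in H1975 (0.0062%) and 11 more negative (0.0682%), but the numbers pair the samples only in H1975 and HCC827. BMF was among them, with -1.01 ± 0.12 (adjusted p = 0.0179), and its change was -0.74 in PC9, -0.12 in HCC827 and -0.68 in HCC2935. So were RRAD, a small GTPase (-1.39 ± 0.22), PADI2 (-1.37 ± 0.23) and SHC1, an adaptor between receptor kinases and RAS (-0.5 ± 0.08), while PTGES, a prostaglandin synthase, was more positive in H1975 (0.75 ± 0.1). For MCM5 (0.32 ± 0.25) and MKI67 (0.33 ± 0.38) no difference between H1975 and the other lines was called.

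Markers of other cell types were also read. Of 4 endothelial markers tested, CDH5 was called lower and the summed level of the list was 10.1 to 15.9 CPM in DTPs and 5.27 to 7.77 CPM after washout. Of 5 fibroblast markers tested, COL1A1 was called higher (0.34 ± 0.1). Their part in the results was not tested.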

How the data were processed

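RNA of 60 cultures was sequenced by the submitters as TruSeq mRNA libraries with paired reads on a HiSeq4000. The authors deposited estimated counts per gene and log2 TPM values. The submitters' processing notes name HISAT2 2.1.0, Salmon 0.8.2 and hg38 without roles. The annotation, filters and strand setting are not given in the sources used here, so reads of overlapping antisense genes cannot be told apart.

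Estimated counts were rounded, filtered with filterByExpr and normalized by TMM in edgeR 4.0.16 (R 4.3.3). Its quasi-likelihood F-test with Benjamini-Hochberg adjustment, at an adjusted p under 0.05, compared short washout with DTP and DMSO and long washout with DTP, within the 6 libraries of each comparison. A fit over 24 libraries tested the difference between lines. Printed errors of log2 fold changes are SE, and CPM values were TMM-normalized within a line. At 41302122 or more counts per library, replicates differed by far more than counting error.

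The numbers were taken to pair the samples because all 3 same-numbered correlations between DTP and short washout were over 0.1 (12113 genes). The pairing was thus inferred from the same libraries that the paired fit then tested. This limit was met in H1975 and HCC827 for that contrast, and in no line for long washout or for DMSO. In PC9 and HCC2935 all 3 same-numbered correlations for that contrast were negative, from -0.15 to -0.06 in both. DESeq2 1.42.0 and limma 3.58.1 (log2 TPM deposited with a pseudocount of 0.01), other filters, other scalings and left-out replicates were alternatives. The alternatives within the paired fit were chosen after seeing the data.

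The members and gene lists were chosen with earlier results of these data known. Named genes are index genes, up to 3 called members of each list with the largest change, and the 12 highest and 12 lowest calls whose arms do not overlap. Index genes were given at any level, and the others chosen by this rule averaged 1 CPM or more. As the unpaired fit called none, this rule was applied to the paired fit after its values were seen, and not every gene it yields is named. Other named genes were singled out after their values were seen. The test scripts were tested on simulated data with shared pair effects built in. There 7.91% of 177 calls were false in the paired fit, and 0% of 111 in the unpaired fit. Of 65 of the named genes, 64 were in a GENCODE annotation of hg38. Among these, 25 overlap a gene on the other strand, 15 overlap one on their own strand, and a named pseudogene exists for 8. The keratins KRT18, KRT8 and KRT19 have 68, 50 and 5 named pseudogenes. Counts of genes with such overlaps or pseudogenes are less certain.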

Additional observations from a re-analysis of the deposited data

Results flagged for a closer look

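Genes named above were examined in the other lines for changes opposite to H1975. Listed are those whose DTP and short washout CPM did not overlap in H1975 and, in the opposite direction, did not overlap in another line. They also averaged at least 1 CPM over both arms in each of the 2 lines. Genes whose arms overlap in H1975 were not eligible. The difference between the 2 lines was not tested for any of them.

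In PC9, short washout against DTP gave 0.18 for the adhesion gene CDH1 (-0.79 in H1975), 0.21 for F3 (-0.49), 0.79 for the interferon-induced IFI44L (-1.2) and 0.18 for PADI2 (-1.44). In PC9 the adjusted p in edgeR was 0.0376 for CDH1 and 0.024 for IFI44L, while F3 (0.0609) and PADI2 (0.159) were not called. The H1975 values are from the unpaired fit, which called none of these genes. In PC9 CDH1 was at 630 to 705 CPM in DTPs and 733 to 771 CPM after washout.

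In HCC2935 the amino acid gene ASNS had -0.35 (0.36 in H1975), the adaptor SHC1 had 0.21 (-0.39) and the transporter SLC6A20 had 2.61 (-1.69). None of the 3 was called in HCC2935, with adjusted p of 0.157, 0.267 and 0.0539 in edgeR. SLC6A20 was low in HCC2935, at 0.318 to 0.436 CPM in DTPs and 0.64 to 3.47 CPM after washout.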

How the results depend on the processing

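The call in H1975 rests on the pairing: the unpaired test called 0 genes and the replicate block 1697. Unpaired, DESeq2 gave 399, a fit to all 15 libraries 9, and the libraries labelled long washout in place of short 2. Leaving out 1 library gave 0 to 276 genes. For members of the gene lists the unpaired counts were 0, with DESeq2 50, the block 159, all libraries 1 and 0 to 49 without 1 library. The paired fit gave 0 with no replicate block, 56 over all libraries, 628 at an adjusted p under 0.01, and 1005 to 1392 without 1 pair. The paired list members were 0, 14, 101 and 116 to 156 under the same settings. Other normalizations, filters and tools gave 1609 to 1865 paired calls, and 0 paired calls changed sign in any of these paired fits. Against DMSO, 3789 genes were called at 0.01, the block gave 5975, and leaving out 1 library 4455 to 7403. Long washout against DTP gave 72 with DESeq2, 0 with limma, 1 over all libraries, 0 at 0.01 and 0 to 1 without 1 library. The difference between lines gave 36 with DESeq2, 1 with limma, 12 with the block and 6 with the long washout libraries. The cause of these changes was not tested.

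On TPM in place of CPM the mitotic and replication sums over DTP were 1.73 and 1.62 for short and 0.825 and 0.872 for long washout.

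Direction changed for 4 genes that were not called. Without 1 library EGFR ranged from -0.08 to 0.09, ERBB3 reached 0.01, EGR1 ranged from -0.94 to 0.21 and EPCAM from -0.13 to 0.12, and EPCAM also gave 0.01 by library size, 0.05 in limma and 0.00 with the block.

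With the libraries labelled long washout in place of short, the log2 fold change over DTP took the other sign in many named genes. Cell cycle genes gave -0.32 for MKI67, -0.14 for TOP2A, -0.24 for CDK1, -0.30 for CCNB1, -0.10 for MCM2, -0.20 for MCM5, -0.10 for MCM10, -0.25 for AURKB, -0.17 for ANLN, -0.02 for SKA1 and -0.01 for KIF18B. Genes of signalling, growth arrest and death gave -0.01 for EGFR, 1.59 for EGR1, 0.10 for MYC, 0.58 for DUSP5, 0.46 for ERRFI1, 0.10 for TXNIP, 0.13 for YPEL3, 0.07 for BCL6, 0.11 for BCL2L11, 0.14 for BMF, 0.02 for CCN2, 0.23 for F3 and -0.31 for BIRC3. Metabolic genes gave 0.24 for SREBF1, -0.30 for PSAT1, -0.26 for ASNS and -0.34 for PHGDH. Others gave 0.05 for CDH1, -0.09 for OAS3, -0.31 for TAGLN, 0.42 for PADI3, 0.23 for SLC6A20 and 0.82 for PADI2. In the difference between lines BMF gave 0.66, PADI2 0.94, TUFT1 0.05 and SVIL 0.38. Against these 41 and 4 changes of sign, 509 and 83 values kept their direction and side of the threshold, and 109 and 10 kept their direction and were newly called.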
